A study of Homo sapiens with 12 samples.

Results

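Serum withdrawal was examined in Calu-6 cells in which *LAPTM4B* had been knocked down. Calu-6 is an established human lung cancer line, and *LAPTM4B* encodes a lysosomal membrane protein with several membrane spans. A pool of siRNAs against *LAPTM4B* (siLAPTM4B) was delivered with Lipofectamine RNAiMAX, and a day later the cells stayed in DMEM/F12 with 10% FBS or moved to the same medium with 0% FBS. RNA was taken 48 h after that change, 72 h after transfection, and hybridised to Affymetrix Human Gene 1.0 ST arrays. The 6 siLAPTM4B arrays, 3 biological replicates from independent transfections per medium, are 6 of the 12 arrays of the study. The other 6 hold cells that received scrambled siRNA (siControl) in the same media, and they are used only where the responses of both siRNAs are set side by side. All 4 groups were transfected, so none shows untreated cells. Members are all 18417 genes that have a feature with exactly 1 gene symbol (19460 of the 33252 features on the array). Values are log2 signals, and each change is the mean at 0% FBS minus the mean at 10% FBS, positive where the level was higher without serum.

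Serum brings a culture growth factors, bone morphogenetic proteins, lysophospholipids, retinol and cholesterol-rich lipoproteins. When sterols in the endoplasmic reticulum fall, the SREBP transcription factors are cleaved and turn on genes of cholesterol and fatty acid synthesis, whereas the LXR receptors turn on genes of sterol export when oxysterols are plentiful. BMP and TGF-beta act through SMAD proteins, lysophospholipids feed the SRF and YAP pathways through actin, and loss of insulin-like signals lets FOXO factors enter the nucleus.

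Serum withdrawal changed 3855 of the 18417 genes (20.9%) at a limma adjusted p under 0.05. Of these, 1809 (9.82%) were higher and 2046 (11.1%) were lower without serum. Most changes were small: the median absolute change of the called genes was 0.30 on the log2 scale, 3093 of them moved by less than 0.5, and 88 rose and 60 fell by at least 1. The arrays of both media did not overlap for 6716 genes (36.5%), among them 3847 of the called genes. Lack of overlap thus held for almost every called gene and adds little to a call. Over all genes the median change was -0.0063. Arrays of one medium correlated at 0.9976 or above, and the highest correlation between media was 0.9921. With 3 arrays against 3, the exact two-sided permutation test cannot give a p below 0.1, so gene calls rest on limma, and the number of arrays limits their precision.

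The target of the siRNA was low in every array used here. *LAPTM4B* read 10.01, 10.04 and 9.99 at 10% FBS and 10.45, 10.50 and 10.54 without serum, whereas all 6 siControl arrays lay between 11.75 and 11.94. Its level was thus 0.48 higher (standard error 0.05, adjusted p = 0.00011) in the serum-starved siLAPTM4B cells, with no overlap between media. The epithelial keratin gene *KRT8* lay between 12.95 and 12.99 and *KRT18* between 12.17 and 12.35 in all 6 arrays, whereas *KRT7* fell to 9.13, 9.11 and 9.18 without serum (-1.90). The E-cadherin gene *CDH1* (6.10 to 6.29) lay near the lower quartile of the arrays (6.145 to 6.195), and the mesenchymal intermediate filament gene *VIM* lay between 13.20 and 13.30. Of 11 lung markers, 2 (18.2%, beside 9.82% of all genes) were called higher, the transcription factor genes *SOX2* (0.76) and *FOXA2* (0.29). The summed linear signal of the 11 markers was 3277 to 3538 with serum and 4060 to 4362 without. *SOX2* had the largest rise of the list, and its part in that sum was not separated. *NKX2-1* lay between 6.87 and 7.13 and *SFTPB*, a surfactant protein gene, between 6.94 and 7.14. Of 15 leukocyte markers, 2 (13.3%) were called lower, near the 11.1% of all genes. They were the endosomal glycoprotein gene *CD68* (-0.62) and *CD14* (-0.32). The pan-leukocyte gene *PTPRC* was below the lower quartile on all 6 arrays (5.21 to 5.29). The summed linear signal of these 15 markers was 3123 to 3392 at 10% FBS and 2562 to 2777 without serum. The *CD14* call was lost without the second 0% FBS array or without the first or the third 10% FBS array (adjusted p up to 0.059).

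The genes that rose most were a mixed group of lipid carriers, secreted factors and signalling proteins. *FABP3*, which encodes the heart-type fatty acid binding protein, read 8.48, 8.47 and 8.36 with serum and 11.28, 11.35 and 11.35 without it. The 3 serum-starved arrays agreed within 0.1 and lay far above the others, a change of 2.89 or 7.4-fold (standard error 0.05, adjusted p = 1.1e-08). *RGS4*, a brake on G protein signalling, went from 7.93, 7.99 and 7.75 to 10.73, 10.78 and 10.82, a rise of 2.88. Further rises were seen for *SERPINI1* (2.64), the gene of the protease inhibitor neuroserpin, *CHRNA1* (2.32), a subunit of the muscle acetylcholine receptor, *SPP1* (2.29), the gene of the secreted phosphoprotein osteopontin, and *TFF3* (2.16), a trefoil factor of mucosal surfaces. *KITLG*, the ligand of the receptor KIT, went from 5.51, 5.53 and 5.71, below the lower quartile of its arrays, to 7.57, 7.74 and 7.84. *HTN1* had the largest fitted rise (3.02), from 5.05 to 5.29 up to 7.87 to 8.34. That gene and *CD24* (2.47) have near-identical copies in the genome, so their features may read other transcripts, and both lay below the lower quartile at 10% FBS.

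The largest falls were as mixed, with several surface proteins among them. *LYPD6B*, of the Ly6 and uPAR family, read 11.74, 11.85 and 11.81 with serum and 9.23, 9.32 and 9.34 without, a fall to 0.177 of its level. *SEMA6A*, a transmembrane semaphorin, fell from 10.47, 10.46 and 10.33 to 8.18, 8.27 and 8.35. Both sets of arrays were tight and far apart. The guanine deaminase gene *GDA* (-2.09), the dermatan sulfate epimerase-like gene *DSEL* (-1.90), the keratin gene *KRT7* (-1.90) and *PTGS2* (-1.87), which encodes cyclooxygenase 2, fell by similar amounts. Receptor genes were *IL7R*, for interleukin 7 (11.23, 11.29 and 11.33 to 9.23, 9.32 and 9.37), and *LIFR*, for leukaemia inhibitory factor (7.33, 7.37 and 7.31 to 5.43, 5.27 and 5.37). *LIFR* was below the lower quartile on all 3 arrays without serum. All 20 genes of this ranking kept their call whichever array was left out.

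**Figure D1:**
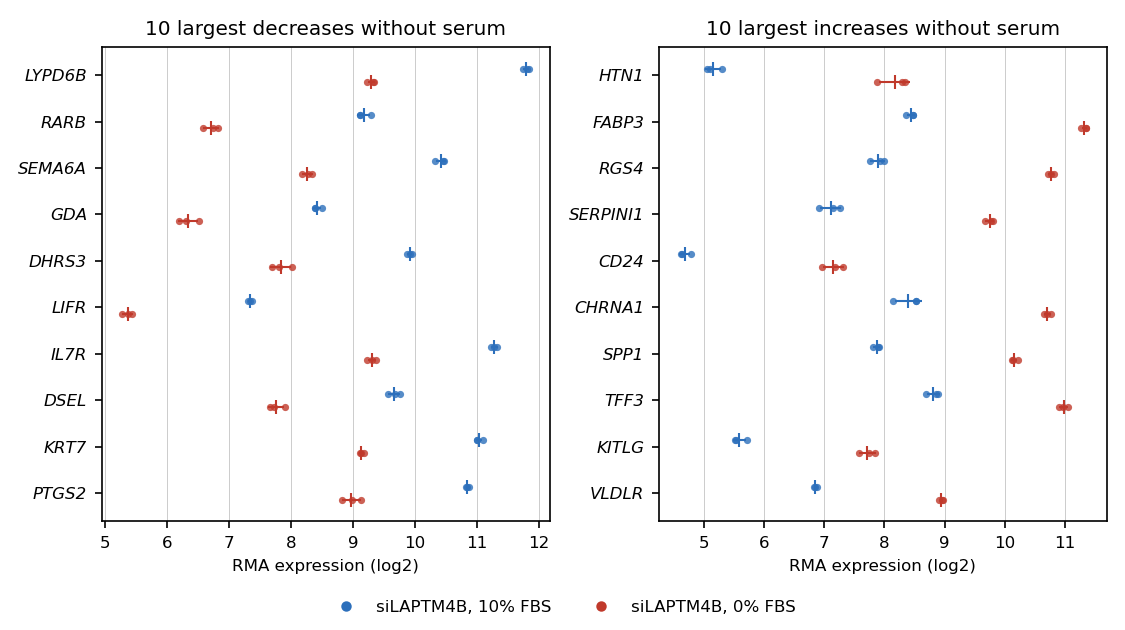
Log2 expression (x axis) of the 10 genes with the largest fall and the 10 with the largest rise in siLAPTM4B cells; dots are arrays, ticks and bars the mean and SD of 3 arrays, blue with 10% FBS and red with 0% FBS. The 20 genes were taken from called genes whose arrays do not overlap between media, so the gap between the media is set by that choice.

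Genes of cholesterol synthesis rose almost as a block. Of 16 measured genes of the pathway, 15 (93.8%) were called higher and 0 lower, with a median change of 0.70, beside 9.82% of all genes higher and a median of -0.0063. *HMGCS1*, whose enzyme makes HMG-CoA at the entry of the pathway, read 11.36, 11.43 and 11.42 with serum and 12.55, 12.64 and 12.61 without, a rise of 1.19 or 2.29-fold (standard error 0.05, adjusted p = 4.9e-07). Its arrays did not overlap, and the same held for each of the 15. Later steps moved as well: *IDI1*, the isopentenyl diphosphate isomerase, rose by 0.64, *SQLE*, the squalene epoxidase, by 0.85, *LSS*, which closes the first sterol ring, by 0.98, and *MSMO1*, which removes methyl groups from sterols, by 0.85. The farnesyl diphosphate synthase gene *FDPS* rose from 10.55, 10.64 and 10.63 to 11.30, 11.32 and 11.31. *PMVK*, the phosphomevalonate kinase gene, was the member not called (8.93, 8.88 and 8.83 with serum, 8.84, 8.84 and 8.92 without). The count of 15 was the same with any of the 6 arrays left out.

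Since these genes moved together, their promoters are shown for the few on which the account turns, with the bases before the annotated start site on the sense strand of the gene (RefSeq, GRCh38.p14). Promoters were found for 14 of the 16 genes. The CCAAT box, a site of the factor NF-Y, was searched as CCAAT on both strands, so that it reads ATTGG on the other strand, in the 250 bases before and 50 after the start. It occurred in 11 of the 14 promoters (78.6%) and in 35.7% of all 27305 promoters of that length, but also in 82.6% of the 23 promoters of the unfolded protein response list, which gave few calls. In capitals are the CCAAT boxes of *HMGCS1* (chr5:43313493-43313582, minus strand), *FDPS* (chr1:155308676-155308825, plus strand) and *MSMO1* (chr4:165327474-165327643, plus strand).
HMGCS1: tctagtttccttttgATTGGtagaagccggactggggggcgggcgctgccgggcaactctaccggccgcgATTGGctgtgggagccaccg
FDPS: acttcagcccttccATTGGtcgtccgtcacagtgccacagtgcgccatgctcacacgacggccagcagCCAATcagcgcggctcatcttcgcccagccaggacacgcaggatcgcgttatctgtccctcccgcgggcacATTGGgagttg
MSMO1: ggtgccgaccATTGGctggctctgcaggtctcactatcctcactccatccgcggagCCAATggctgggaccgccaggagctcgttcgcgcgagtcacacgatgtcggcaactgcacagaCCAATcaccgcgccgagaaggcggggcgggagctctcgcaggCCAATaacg
The stretches hold 2, 3 and 4 matches. A sterol element, searched as CACNCCAC on both strands, was in 1 of the 14 promoters (7.14%) and in 5.74% of all promoters. Only matches to these letters were counted, so sterol elements with other letters would be missed, and the count does not show how many promoters have such an element.

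Genes that sense, take up and move sterols rose too. Of 10 measured members, 6 (60%) were called higher and 0 lower, with a median of 0.48. *VLDLR*, a lipoprotein receptor, went from 6.85, 6.87 and 6.82 to 8.96, 8.91 and 8.97, a rise of 2.10 or 4.29-fold (standard error 0.05, adjusted p = 2e-08). *INSIG1*, which holds SREBP in the endoplasmic reticulum when sterols are plentiful, rose by 1.32, from 9.97, 10.02 and 9.93 to 11.24, 11.34 and 11.29. Increases were also called for *STARD4* (1.17), a sterol carrier, *NPC1* (0.73), which lets cholesterol out of lysosomes, *SREBF2* (0.54) and *SREBF1* (0.42), the genes of the SREBP factors themselves. Of the 10 promoters of this list 2 (20%) held the sterol element, those of *INSIG1* and *SREBF2*. It is in capitals in the *INSIG1* stretch (chr7:155297648-155297727, plus strand), where the match is on the other strand.
INSIG1: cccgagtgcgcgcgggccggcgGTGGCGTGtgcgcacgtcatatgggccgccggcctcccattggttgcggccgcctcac

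Sterol export did not move opposite to synthesis. Of 7 measured LXR-linked genes, 6 (85.7%) were called higher and 0 lower, with a median of 0.31. *ABCG1*, a sterol exporter, read 8.21, 8.19 and 8.11 with serum and 9.44, 9.57 and 9.51 without. *ABCA1*, which loads lipid onto apolipoprotein A-I, read 9.15, 9.19 and 9.10 with serum and 10.03, 10.08 and 10.11 without. The exporters rose by 1.34 and 0.93, and the apolipoprotein gene *APOE* by 0.31. *NR1H3*, the gene of the receptor LXR-alpha, was not called (-0.14, adjusted p = 0.06). *MYLIP* (0.23), which marks lipoprotein receptors for degradation, lost its call without the third 0% FBS or the third 10% FBS array.

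Fatty acid synthesis showed the same direction. Of 11 measured genes, 9 (81.8%) were called higher and 0 lower, with a median of 0.36. *FADS2*, a desaturase of polyunsaturated fatty acids, rose from 11.71, 11.72 and 11.67 to 12.84, 12.91 and 12.88, a change of 1.18. *FASN*, the fatty acid synthase, read 11.56, 11.39 and 11.29 with serum and 12.20, 12.32 and 12.21 without. For both, every serum-starved array lay above every array with serum. *ACSS2*, which makes acetyl-CoA from acetate, rose by 0.92 and the desaturase gene *SCD* by 0.50.

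**Figure D2:**
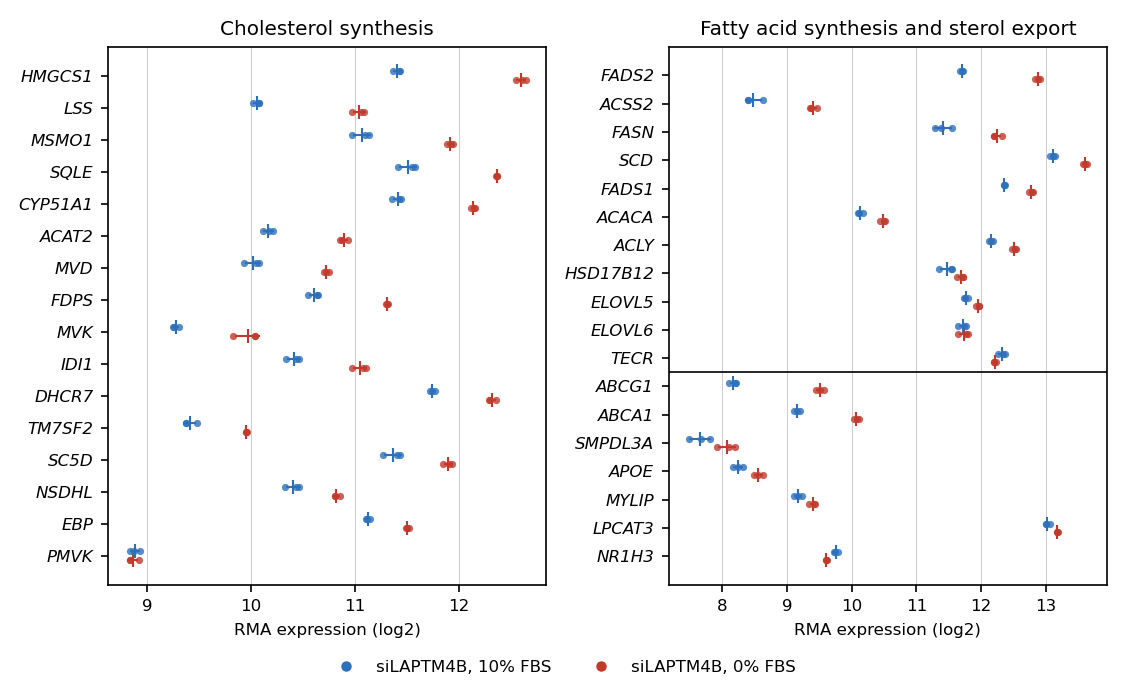
Log2 expression (x axis) of all measured members of 3 lipid lists in siLAPTM4B cells, on the left cholesterol synthesis and on the right fatty acid synthesis (above the line) and sterol export (below it); dots are arrays, ticks and bars mean and SD of 3, blue with 10% FBS and red with 0% FBS. PMVK is the one cholesterol synthesis gene whose arrays overlap between media.

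Genes linked to PPAR receptors and the use of fatty acids split, with 8 of 21 members called higher and 8 called lower (38.1% each) and a median of -0.06. Among those that rose were *ACSL1*, which activates long fatty acids (8.58, 8.61 and 8.59 to 10.38, 10.41 and 10.42), *ANGPTL4*, a secreted inhibitor of lipoprotein lipase (8.79, 8.65 and 8.71 to 10.20, 10.18 and 10.25), and *PDK4*, which closes the pyruvate dehydrogenase gate (9.41, 9.58 and 9.53 to 10.87, 10.93 and 10.94). These 3 rises were 1.81, 1.50 and 1.40. The lipid droplet gene *PLIN2* rose by 0.67 and *CPT1A*, which passes fatty acids into mitochondria, by 0.47. On the other side stood *ACSL5* (-0.59), *ETFDH* (-0.56), *CREB3L3* (-0.48) and *CPT2* (-0.29), of which *ETFDH* and *CPT2* serve mitochondrial fatty acid oxidation. The 8 lower calls became 5 without the first 0% FBS, the second 0% FBS or the second 10% FBS array.

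The retinoid genes were listed after the falls of *RARB* and *DHRS3* had been seen, so their counts are a description only. *RARB*, a receptor of retinoic acid whose gene is itself a target of that receptor family, went from 9.12, 9.30 and 9.11 to 6.57, 6.81 and 6.75. *DHRS3*, which turns retinaldehyde back to retinol, went from 9.95, 9.92 and 9.88 to 8.02, 7.69 and 7.80. Each fell by more than 2 on the log2 scale (-2.46 and -2.08). *STRA6*, the cell surface receptor that takes up retinol, read 10.76, 10.59 and 10.60 with serum and 9.77, 9.73 and 9.64 without (-0.94). *RARG* fell by 0.43, and *RXRA* (0.36) and the retinal reductase gene *RDH11* (0.40) rose. These 4 lower (18.2%) and 2 higher (9.09%) genes were the called ones among 22 measured. Of all genes, 11.1% were called lower and 9.82% higher. The retinoic acid hydroxylase genes *CYP26A1* (0.06, adjusted p = 0.62) and *CYP26B1* (0.06, adjusted p = 0.57), which clear retinoic acid, were not called.

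Response genes of BMP and TGF-beta fell more often than those of any other list here: 14 of 21 measured members (66.7%) were called lower and 1 higher, with a median of -0.43, beside 11.1% of all genes lower. *ID1*, an inhibitor of helix-loop-helix factors and a direct SMAD target, read 12.00, 12.00 and 11.98 with serum and 10.37, 10.42 and 10.34 without, 0.326 of its level (standard error 0.05, adjusted p = 6.3e-08). The ligand gene *TGFB2* fell from 11.23, 11.26 and 11.21 to 9.70, 9.73 and 9.86. Neither gene showed any overlap. *ATOH8* (-1.12), a helix-loop-helix factor, *SMAD9* (-1.0), a SMAD of the BMP branch, and the inhibitory SMADs *SMAD7* (-0.71) and *SMAD6* (-0.43) fell as well. *LOX*, which cross-links collagen and is listed as a TGF-beta target, rose by 0.35. The call of *ID3* (-0.20) was lost without the first or the third array of either medium (adjusted p up to 0.073).

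Targets of SRF and YAP were lower in 10 of 22 (45.5%) and higher in 3, with a median of -0.10. *ANKRD1*, a muscle ankyrin repeat protein and YAP target, read 9.66, 10.02 and 9.90 with serum and 8.56, 8.64 and 8.58 without (-1.27). *CCN2*, which encodes connective tissue growth factor, went from 10.98, 10.88 and 10.97 to 9.98 in all 3 arrays (-0.97). *TPM1* (-0.31) and *AXL* (-0.30) followed at a distance. The higher calls were *TGFB1I1* (0.31), an adaptor of focal adhesions, *ACTG2* (0.30), the smooth muscle gamma-actin gene, and *LATS2* (0.19), a kinase that restrains YAP. The call of *LATS2* was lost without the second or the third 0% FBS array or the first or second 10% FBS array (adjusted p up to 0.0967). Other smooth muscle targets of SRF, *ACTA2* (0.03) and *TAGLN* (-0.05), did not pass the test.

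The cell division genes moved slightly, and mostly those of mitosis. Of 60 measured genes of G2 and M phase, 24 (40%) were called lower and 2 higher, with a median of -0.17, and 55 of the 60 had a negative estimate. *CDCA3*, which helps cells enter mitosis, fell from 10.83, 10.84 and 10.69 to 10.33, 10.36 and 10.29 (-0.46). *KIF20A*, a kinesin of cytokinesis, fell from 12.18, 12.21 and 12.24 to 11.73, 11.86 and 11.84 (-0.40). *CDC25C* (-0.35), *CENPE* (-0.34) and *PLK1* (-0.26), a phosphatase, a kinetochore motor and a kinase of mitotic entry, fell too. *MKI67*, the gene of the Ki-67 antigen, was not called (11.62, 11.64 and 11.56 with serum, 11.33, 11.50 and 11.46 without, adjusted p = 0.065), and neither was *CDK1* (-0.06, adjusted p = 0.62). The 24 became 15 without the first 0% FBS, the second 0% FBS or the third 10% FBS array. The 2 higher calls became 1 without the first 0% FBS or the second 10% FBS array and 0 without each other array or with array medians made equal. In RNA of whole cultures, fewer cells in mitosis and less of these transcripts per cell cannot be told apart.

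DNA replication genes were lower in 9 of 46 (19.6%) and higher in 0, with a median of -0.05. The called ones included the polymerase subunit gene *POLD3* (-0.38) and the helicase gene *MCM5* (-0.24), whereas *PCNA* (-0.05), *MCM2* (-0.04), *TYMS* (0.01) and *RRM2* did not pass the test. G1 cyclins and inhibitors of cyclin-dependent kinases were close to the background, with 4 of 28 higher and 3 lower. Among these, *CDKN1A*, the gene of p21, rose by 0.47, from 8.26, 8.22 and 8.18 to 8.75, 8.70 and 8.62, and *E2F8*, a repressor of the E2F family, fell by 0.42. *CCND1*, the gene of cyclin D1, was not called (-0.11, adjusted p = 0.15). With any one array left out the G1 calls ranged from 1 to 5 higher and from 1 to 3 lower. *CDKN1B* (0.22), the gene of p27, lost its call without the second or the third 0% FBS array or the first or second 10% FBS array.

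Promoters of 3 mitotic genes called lower are shown, since many promoters of the list, whether or not the gene was called, hold the same elements. The cell cycle homology region was searched as TTTGAA on both strands. It was in 35 of 52 promoters of the G2 and M list (67.3%) and in 15.4% of all promoters, and the CCAAT box was in 37 of 52 (71.2%). The E2F site, searched as TTTCGCGC, TTTGGCGC and TTTCCCGC, was in 18 of 40 promoters of the replication list (45%) and in 2.79% of all. That count takes in genes not called, such as *MCM2*, *PCNA* and *TYMS*, and whether the site goes with the change was not tested. In capitals below are the CCAAT boxes and the cell cycle homology region of *CCNB2* (chr15:59105016-59105145), the gene of cyclin B2, of *PLK1* (chr16:23678799-23678888) and of *CDC20* (chr1:43358871-43358980), an activator of the anaphase-promoting complex, all on the plus strand and each ending at the base before the start site.
CCNB2: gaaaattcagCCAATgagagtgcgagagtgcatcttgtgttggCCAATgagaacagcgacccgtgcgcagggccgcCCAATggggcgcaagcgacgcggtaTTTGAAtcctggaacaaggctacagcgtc
PLK1: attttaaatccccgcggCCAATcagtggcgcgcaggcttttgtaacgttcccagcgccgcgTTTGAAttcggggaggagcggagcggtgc
CDC20: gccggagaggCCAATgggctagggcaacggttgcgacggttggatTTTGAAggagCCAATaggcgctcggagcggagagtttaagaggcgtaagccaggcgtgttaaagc
The falls of these 3 genes were -0.24, -0.26 and -0.20, and the call of *CDC20* was lost without the third 0% FBS array (adjusted p = 0.06).

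**Figure D3:**
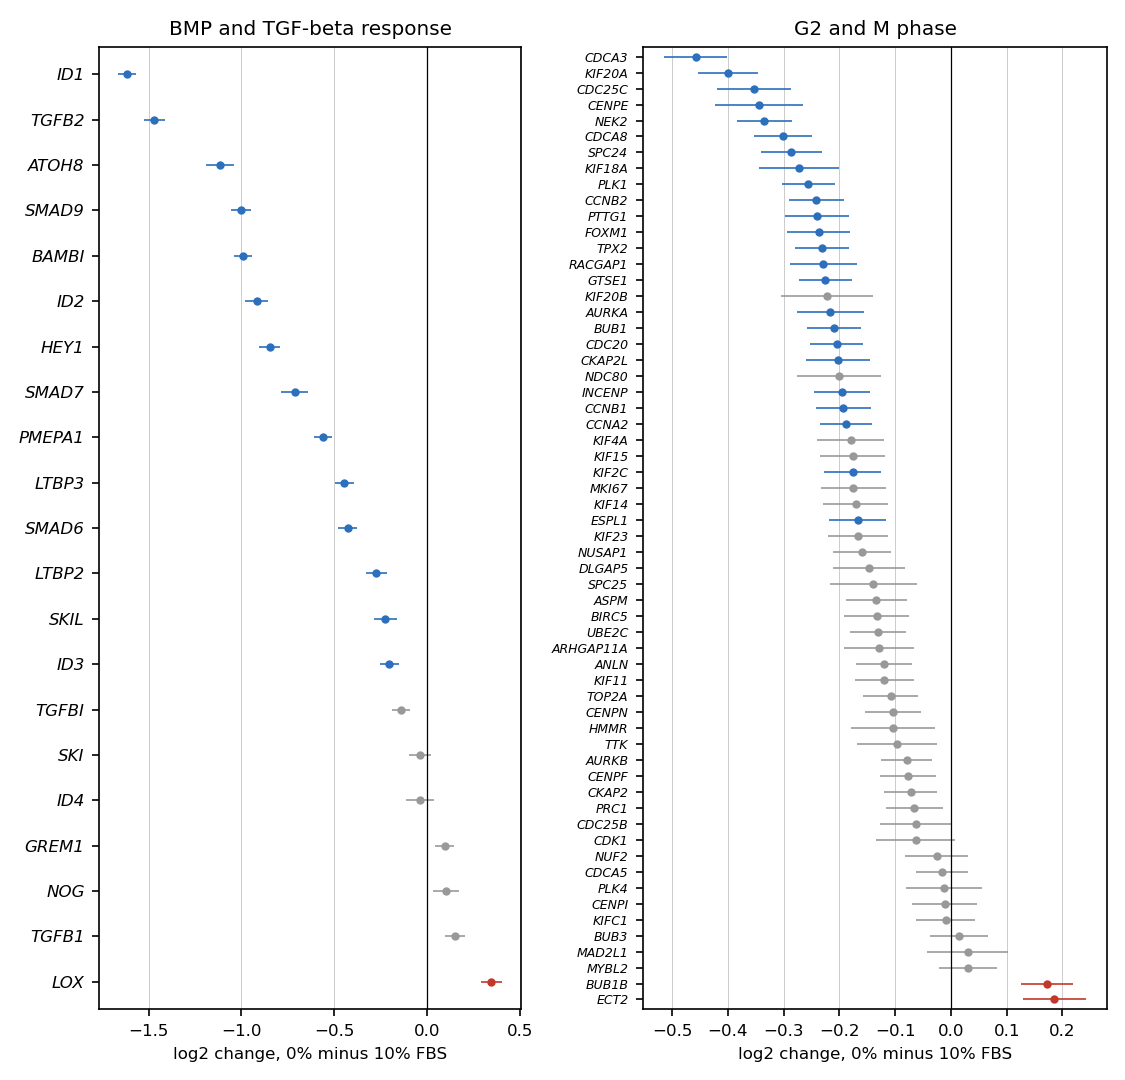
Log2 change without serum (x axis, 0% minus 10% FBS) with its standard error for every measured member of the BMP and TGF-beta list (left) and the G2 and M list (right) in siLAPTM4B cells; blue is called lower, red higher, grey not called. The x axes differ: ID1 lies at -1.61 on the left, and the lowest gene on the right, CDCA3, at -0.46.

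Ribosome biogenesis genes were lower in 7 of 33 (21.2%) and higher in 0, with a median of -0.06. *RRS1* (-0.37), an assembly factor of the large subunit, and the spermidine synthase gene *SRM* (-0.32), a MYC target, fell, and *MYC* itself was not called (0.10, adjusted p = 0.36). Without the second 10% FBS array 5 genes were called, and 4 without each other array.

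Immediate early genes, which serum brings on within minutes in quiescent cells, were higher in the cells without serum. Of 26 measured, 13 (50%) were called higher and 2 lower, with a median of 0.16. *NR4A2*, an orphan nuclear receptor, read 8.34, 8.20 and 8.10 with serum and 9.50, 9.68 and 9.65 without (1.40). *FOS*, a subunit of AP-1, read 8.43, 8.25 and 8.36 with serum and 9.11, 9.10 and 9.21 without (0.79), and its partner *JUN* rose by 0.71. The serum-starved arrays of all 3 genes lay above those with serum. *EGR1* rose by 0.38. In the other direction went *CCN1* (9.35, 9.42 and 9.29 to 8.72, 8.55 and 8.83), a matricellular protein and YAP target, and *IER3* (-0.20), whose call was lost without the second or the third 0% FBS or the third 10% FBS array. Feedback genes of ERK showed the same sign, with 12 of 21 higher (57.1%) and 0 lower and a median of 0.26. They included the phosphatase genes *DUSP1* (0.71), *DUSP4* (0.58), *DUSP5* (0.45) and *DUSP6* (0.35) and the ephrin receptor gene *EPHA4* (0.76). *ETV5* (-0.15, adjusted p = 0.051) and *FOSL1* (-0.12, adjusted p = 0.18), also linked to ERK output, were not called.

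FOXO and starvation genes were higher in 13 of 27 (48.1%) and lower in 1, with a median of 0.20. Besides *PDK4*, the rises were led by *TP53INP1*, a stress protein of autophagy (7.76, 7.66 and 7.43 to 8.73, 8.76 and 8.80), and *FBXO32*, the ubiquitin ligase atrogin-1 (8.34, 8.41 and 8.24 to 9.16, 9.22 and 9.30). *CCNG2*, an atypical cyclin, rose by 0.59. *IRS2* (0.29) rose and *IRS1* fell (-0.67, from 10.46, 10.33 and 10.38 to 9.63, 9.75 and 9.77), so that both insulin receptor substrates changed in opposite directions. *TXNIP*, an arrestin that limits glucose uptake, was not called, and its arrays overlapped (0.23, adjusted p = 0.088). The FOXO site, searched as GTAAACA on both strands, was in 4 of 22 promoters of the list (18.2%) and in 3.41% of all promoters. The promoters of *TXNIP* and of *BCL2L11*, a member called higher, were among those that held it. The promoters of *PDK4*, *IRS1* and *IRS2* did not. Whether the site goes with the change was not tested.

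Ligands and receptors of growth factors were called in 27 of 43 cases, 19 higher (44.2%) and 8 lower (18.6%), with a median of 0.17. *IGFBP2*, which binds insulin-like growth factors, went from 10.11, 10.06 and 10.24 to 11.37, 11.37 and 11.33 (1.22). *FGFR1* (0.96), *PDGFA* (0.70) and *HBEGF* (0.54), a receptor and 2 ligands, rose. *PDGFRB*, a receptor of platelet-derived growth factor, fell from 9.07, 8.90 and 8.80 to 7.60, 7.72 and 7.74 (-1.23), while its relative *PDGFRA* rose by 0.47. *KIT* (-0.62) fell where its ligand gene *KITLG* rose, and the shared cytokine receptor gene *IL6ST* fell (-0.61) along with *LIFR*. *EGFR* and *IGF1R* (-0.05) did not pass the test.

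Apoptosis genes were higher in 8 of 28 (28.6%) and lower in 4 (14.3%), with a median of 0.04. *BMF*, a BH3-only activator of cell death released from the cytoskeleton, rose from 9.26, 9.11 and 9.19 to 10.26, 10.28 and 10.31 (1.10), and *BCL2L11*, the gene of BIM, rose from 7.68, 7.75 and 7.51 to 8.10, 8.15 and 8.23 (0.52). Both lay wholly above the arrays with serum. *PMAIP1*, the gene of NOXA, rose by 0.43. *TNFSF10*, the gene of the death ligand TRAIL, fell from 6.52, 6.35 and 6.69 to 5.48, 5.56 and 5.50, below the lower quartile of those arrays, and *BIRC2*, an inhibitor of apoptosis, fell by 0.48. The 8 higher calls became 5 without the second or the third 0% FBS array. Targets of p53 were higher in 9 of 27 (33.3%) and lower in 2, among them the stress cytokine gene *GDF15* (0.82), while *MDM2* (0.06, adjusted p = 0.52) was not called. A single lower p53 target was called when any array other than the third 0% FBS array was left out.

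Genes of hypoxia and glycolysis were higher in 16 of 37 (43.2%) and lower in 3, with a median of 0.13. *NDRG1*, a stress and differentiation gene, read 9.59, 9.49 and 9.48 with serum and 11.65, 11.55 and 11.56 without (2.07, 4.2-fold). *STC1*, the gene of the secreted glycoprotein stanniocalcin, read 7.54, 7.60 and 7.43 with serum and 9.59, 9.50 and 9.66 without (2.06). *VEGFA*, the vascular growth factor, rose from 8.14, 8.09 and 8.06 to 9.59, 9.54 and 9.57 (1.47). No array of one medium reached those of the other in these 3 genes. The hexokinase gene *HK2* rose by 0.97. The glycolytic genes *LDHA* and *PGK1* (0.13) did not pass the test, *ADM* fell by 0.36 and the carbonic anhydrase gene *CA12* by 0.57.

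The amino acid response under ATF4 was higher in 12 of 41 (29.3%) and lower in 3, with a median of 0.0047. *TRIB3*, a pseudokinase that restrains AKT, rose by 0.78 and *DDIT4*, an inhibitor of mTORC1, by 0.67. *ASNS*, the asparagine synthetase gene and a classical ATF4 target, was not called (0.06, adjusted p = 0.53), and *CTH*, an enzyme of cysteine synthesis, fell by 0.63. The amino acid response element, searched as TTGCATCA on both strands, was in 7 of 34 promoters of the list (20.6%) and in 0.923% of all. The promoters of *TRIB3*, *DDIT4* and *CTH* held no match, and whether the element goes with the change was not tested. The unfolded protein response was near the background, with 3 of 24 higher (12.5%) and 2 lower, and the chaperone gene *HSPA5* did not pass the test (-0.03, adjusted p = 0.79). No lower call of that list remained without the first or second 0% FBS array or the second or the third 10% FBS array.

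Because *LAPTM4B* belongs to the lysosome, the genes of that organelle and of autophagy were listed too. Of 59 measured lysosomal genes, 8 were higher (13.6%) and 15 lower (25.4%), with a median of -0.03. Falls were seen in *CTSH* (-0.46), *CTSL* (-0.31) and *CTSD* (-0.22), which encode cathepsins, in the acid sphingomyelinase gene *SMPD1* (-0.35) and in *LAPTM5* (-0.50), a family member of *LAPTM4B* that went from 10.40, 10.56 and 10.48 to 9.93, 10.05 and 9.98. The closest relative, *LAPTM4A*, was not called (-0.03, adjusted p = 0.76), nor was *LAMP1*, an abundant protein of the lysosomal membrane (-0.11, adjusted p = 0.16). *NPC1* led the rises, followed by the sialidase gene *NEU1* (0.39) and *CD63* (0.39). The 8 higher calls became 5 without the second 0% FBS or the third 10% FBS array.

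Autophagy genes were higher in 10 of 40 (25%) and lower in 6 (15%), with a median of 0.02. *GABARAPL1*, of the ATG8 family that decorates autophagosomes, rose from 9.50, 9.76 and 9.71 to 10.19, 10.18 and 10.43 (0.61), and *ATG4C*, a protease of that family, fell from 9.06, 9.44 and 9.22 to 8.67, 8.72 and 8.80 (-0.51). *MAP1LC3B*, the gene of LC3B, was not called, although its arrays did not overlap (9.26, 9.04 and 9.09 to 9.38, 9.27 and 9.32, adjusted p = 0.062). *SQSTM1*, the gene of the cargo receptor p62, rose by 0.16, a call lost without any one of the 6 arrays (adjusted p up to 0.19). The 10 higher calls became 6, 2 and 2 without the first, the second and the third 0% FBS array and 5, 3 and 5 without those at 10% FBS. The 6 lower calls became 3 without the first 0% FBS or the second 10% FBS array.

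Targets of NRF2, the antioxidant transcription factor, went both ways, with 13 of 54 higher (24.1%) and 10 lower (18.5%) and a median of 0.05. *HMOX1*, the heme oxygenase gene, read 7.91, 7.98 and 8.25 with serum and 8.73, 8.76 and 8.93 without (0.76, standard error 0.09, adjusted p = 0.00029). *ME1* (0.51), which supplies NADPH, and the cystine transporter gene *SLC7A11* (0.42) rose. *AKR1C3*, a ketosteroid reductase, fell from 8.10, 8.45 and 8.34 to 7.09, 6.93 and 7.18 (-1.23), and the efflux pump genes *ABCG2* (-1.17) and *ABCC2* (-0.90) fell with it. *AKR1C3* has close paralogs, so its value is uncertain. *NFE2L2*, the gene of NRF2, and *NQO1*, a quinone reductase, were not called (0.01 and -0.05).

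Matrix genes were higher in 17 of 60 (28.3%) and lower in 8 (13.3%), with a median of 0.06. *TNC*, the gene of tenascin C, rose from 10.76, 10.64 and 10.64 to 11.75, 11.81 and 11.78 (1.10), *SPON1* by 1.16 and the membrane protease gene *MMP14* by 0.86. *LUM*, the gene of the proteoglycan lumican, fell from 8.39, 8.50 and 8.61 to 6.51, 6.85 and 6.60 (-1.85), and *SPARC* fell by 0.48. The 8 lower calls became 5 without the second 0% FBS or the first 10% FBS array. *LUM* and *PDGFRB* are also markers of fibroblasts. Of 16 fibroblast and endothelial markers, 2 (12.5%) fell, near the 11.1% of all genes. The 1 that rose (6.25%, beside 9.82% of all genes) was *S100A4* (0.71). On all 3 arrays of each medium 2 markers lay below the lower quartile. The summed linear signal of the 16 markers was 3955 to 4165 with serum and 4273 to 4399 without. Their part in the matrix values was not tested.

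The remaining lists are given in brief, beside 9.82% of all genes called higher and 11.1% called lower. NF-kappaB targets and cytokines had 4 higher (13.3%) and 5 lower (16.7%) of 30. Among them *IL11* (0.85) and *CXCL8* (0.25) were higher, *PTGS2* and *TNFAIP3* (-0.60) lower, and *IL6* was not called (-0.04). The 5 lower became 3 without the second 0% FBS array. Interferon response genes had 3 higher and 4 lower of 44 (15.9% in all, beside 20.9% of all genes). In that list *IFI35* (-0.59) fell, *ISG15* and *MX1* were not called, and the higher calls became 5 without the first 0% FBS array. Clock genes had 4 in each direction of 18 (22.2% each), with *BHLHE41* (-0.83) and *PER3* (-0.37) lower and *NFIL3* (0.40) higher. Genes named for growth arrest had 1 higher (10%) and 2 lower (20%) of 10. Of 18 genes of the epithelial or mesenchymal state, 1 (5.56%) was called higher and 4 (22.2%) lower. The adhesion gene *EPCAM* rose (0.79) and *KRT7* and the repressor genes *ZEB2* (-0.54), *SNAI1* (-0.53) and *SNAI2* (-0.51) fell. A second gene of that list was called higher without the second 10% FBS array.

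**Figure D4:**
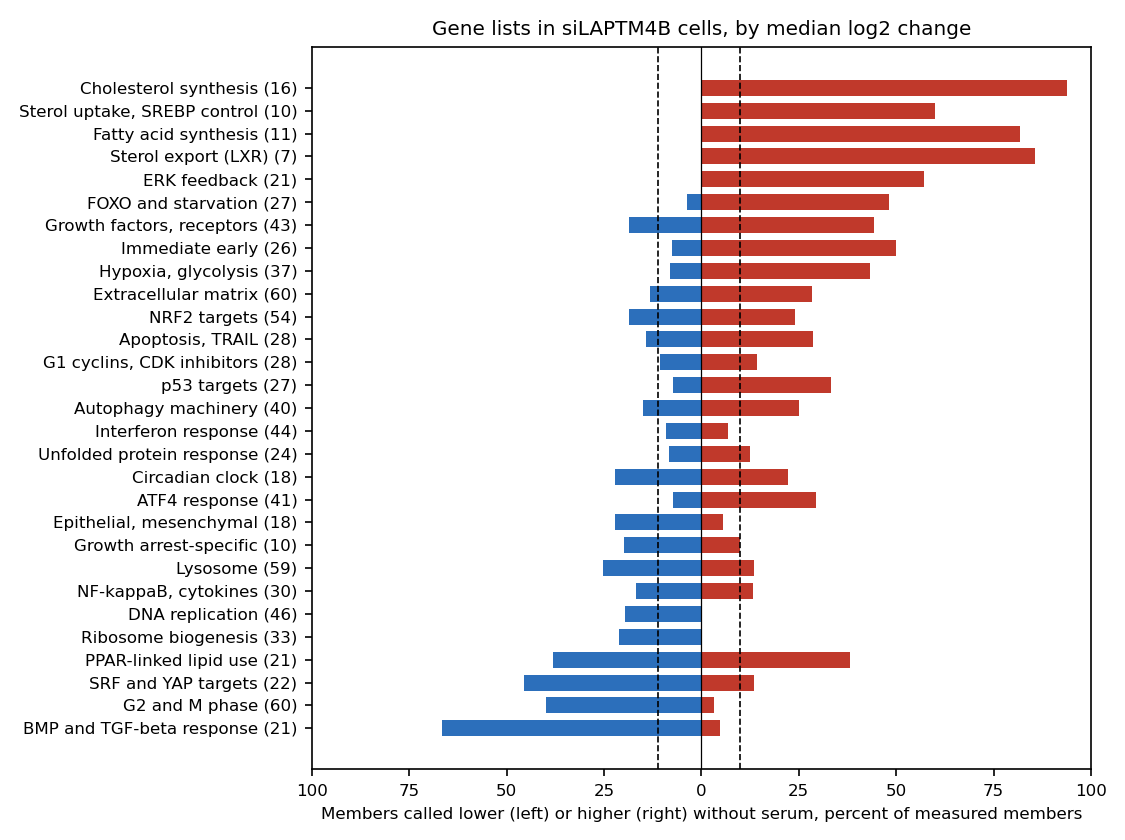
Percent of the measured members (number in brackets) of 29 gene lists called lower (blue, to the left) or higher (red, to the right) without serum in siLAPTM4B cells, ordered by median log2 change; dashed lines mark 11.1% lower and 9.82% higher among all 18417 genes. Cholesterol synthesis has the highest share of rises (93.8%) and the BMP and TGF-beta response the highest share of falls (66.7%).

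The siControl arrays show which of these responses differed with knockdown. There 4866 genes (26.4%) were called, and 2907 genes were called the same way in both, which is 75.4% of the siLAPTM4B calls and 59.7% of the siControl calls. Of the 941 genes called in siLAPTM4B cells alone, 3 differed by the test of the difference itself, an interaction over all 12 arrays, so a call with 1 siRNA alone was seldom accompanied by a called difference. The interaction called 50 genes (0.271%), in 37 of them with a more negative response after knockdown (0.201%) and in 13 with a more positive one (0.0706%), while 2004 genes had an unadjusted p under 0.05. That count was 49 without the third siLAPTM4B array at 0% FBS, 40 without the first siLAPTM4B array at 10% FBS, and 19 to 33 without each other array. No member of the cholesterol synthesis, fatty acid synthesis or BMP lists was among the 50. These lists hold 16, 11 and 21 measured genes, too few at a share of 0.271% for the absence to set them apart. The G2 and M, lysosome and NRF2 lists, with 60, 59 and 54 measured genes, had no member among the 50 either. They too are small for that share, so no conclusion is drawn from the absence.

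*FOS* showed the largest negative difference (-0.90, adjusted p = 0.0096): it rose by 0.79 in siLAPTM4B and by 1.70 in siControl cells. *SPP1* rose by 2.29 and 3.08, and *FGF7*, a fibroblast growth factor, by 0.43 and 1.24. *HAS2*, which makes hyaluronan, was not called after knockdown (9.77, 9.83 and 9.77 with serum, 9.70, 9.71 and 9.79 without). In siControl cells it rose by 0.81, a difference of -0.87 (adjusted p = 0.00026). Its means in siLAPTM4B and siControl cells were apart at 10% FBS (9.79 and 9.06) and closer without serum (9.74 and 9.87). *IL7R* (-1.98 and -1.10) and *SRPX2* (-1.16 and -0.33), a secreted sushi domain protein, fell further after knockdown. The largest positive differences came from genes whose fall was smaller after knockdown. *PLAU*, the urokinase gene, fell by 1.07 (9.80, 9.78 and 9.82 to 8.73, 8.76 and 8.70) and by 1.96 in siControl cells, a difference of 0.89 (adjusted p = 6.1e-05). *LIFR* (-1.98 and -2.91) and *TNFSF10* (-1.01 and -1.94) went the same way, and both were below the lower quartile on all arrays without serum with either siRNA. At 10% FBS their means were lower in siLAPTM4B than in siControl cells (7.34 and 8.50 for *LIFR*, 6.52 and 7.61 for *TNFSF10*). *NNMT*, a methyltransferase of nicotinamide, was not called after knockdown (-0.13) and fell by 0.88 in siControl cells. Its means in siLAPTM4B and siControl cells were 7.71 and 8.42 at 10% FBS and 7.58 and 7.54 without serum. *LAPTM4B* itself rose by 0.15 in siControl cells, a difference of 0.33 (adjusted p = 0.035). Some of these calls depended on the processing: under 18 alternatives the adjusted p of *LAPTM4B* ranged from 0.0012 to 0.103 and was called in 4, and the adjusted p reached 0.051 for *FOS*, 0.0787 for *SRPX2*, 0.0975 for *NNMT* and 0.12 for *FGF7*.

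**Figure D5:**
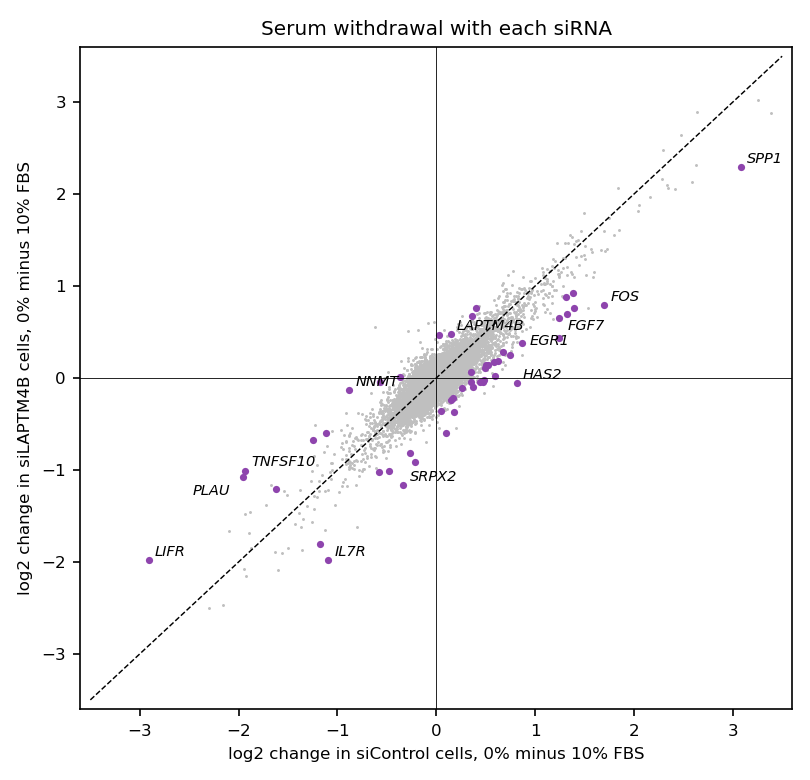
Log2 change without serum in siControl cells (x axis) and in siLAPTM4B cells (y axis) for 18417 genes; purple marks the 50 genes whose change differed by the interaction test, and the dashed line marks equal change. Most purple points lie below the line, 37 of the 50.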

How the data were processed

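RNA of 12 Calu-6 cultures was hybridised to Affymetrix Human Gene 1.0 ST arrays. The authors normalised the arrays by RMA, with BRB-ArrayTools according to the methods, and deposited log2 expression values per feature. RMA brings all arrays to a shared distribution, so a change in total RNA per cell would not be seen. The genome build was not given in the sources used here. Array medians lay between 7.71 and 7.759.

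The 6 siLAPTM4B arrays were fitted with limma 3.58.1 in R 4.3.3 (0% minus 10% FBS), with Benjamini-Hochberg adjustment across the 19460 features that carry 1 gene symbol, and an adjusted p under 0.05 was called. Features with several symbols (1754) or none (12038) were left out. A gene with several features (769 genes) was represented by whichever had the highest average over the 12 arrays. The siControl arrays were fitted likewise, and the interaction over all 12 arrays. A feature was taken as dim below the 0.25 quantile of its array. The fits were tested on simulated data. Figures were drawn with matplotlib 3.10.9.

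The genes and lists were chosen with earlier results of these data known. Named are *LAPTM4B*, the 10 largest non-overlapping changes in each direction, up to 4 called members per list and direction, key members of each list, and the 5 largest interactions per direction. *CCNB2*, *FDPS*, *PMVK*, *NR1H3*, *SREBF1*, *MMP1*, *RDH10* and the retinoid genes other than *RARB* and *DHRS3* were chosen after their values were seen. Replicates came from independent transfections, and p-values measure the spread between them. Replicate numbers were not used as a block, because the study's methods name no shared batch or day for them. In siLAPTM4B cells, same-numbered arrays of both media did not deviate together in every pair (correlations 0.316, 0.131 and -0.167). Alternatives changed the arrays fitted, features tested, dim filter, prior variance, block, test, threshold, scaling and feature per gene, and left out each array in turn.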

Additional observations from a re-analysis of the deposited data

Results flagged for a closer look

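By the limma interaction test of the difference itself, the serum response differed between the siRNAs for 17 of the 205 genes named here. Over all genes the share was 0.271%. These shares cannot be compared, because the size of this difference was itself a ground for naming genes. *FOS*, *IL7R*, *HAS2*, *SRPX2* and *FGF7*, and *LIFR*, *TNFSF10*, *PLAU*, *NNMT* and *KCTD4*, are the 5 largest in each direction. *MMP1* and *RDH10* were chosen after their values were seen. Each value is the log2 response after knockdown minus that in siControl cells. The difference was negative for *FOS* (-0.90), *IL7R* (-0.88), *HAS2* (-0.87), *SRPX2* (-0.83), *FGF7* (-0.81), *SPP1* (-0.79), *MMP1* (-0.63), *RDH10* (-0.50), *EGR1* (-0.48) and *ABCA1* (-0.45). It was positive for *LIFR* (0.93), *TNFSF10* (0.93), *PLAU* (0.89), *NNMT* (0.75), *KCTD4* (0.57), *SOX2* (0.36) and *LAPTM4B* (0.33).

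The differences of *PLAU*, *IL7R*, *HAS2*, *LIFR*, *RDH10*, *SPP1*, *TNFSF10* and *ABCA1* were called under each alternative tried for them, with adjusted p up to 0.0413 for *ABCA1*. *RDH10*, which oxidises retinol, read 11.56, 11.60 and 11.53 with serum and 11.51, 11.53 and 11.60 without in siLAPTM4B cells, where it was not called, and rose by 0.48 in siControl cells. *MMP1*, a collagenase, rose by 0.69 after knockdown and by 1.32 in siControl cells. Its means in siLAPTM4B and siControl cells were 8.48 and 7.66 at 10% FBS and 9.17 and 8.98 without serum. *SOX2*, a pluripotency factor, rose by 0.76 and 0.40. *SOX2* and *LAPTM4B* were not called under 14 of 18 alternatives, and *EGR1* and *MMP1* under 12. *KCTD4* was not called under 6 of 17 (adjusted p up to 0.0706), and it lay below the lower quartile on all 3 siControl arrays and 1 siLAPTM4B array without serum.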

How the results depend on the processing

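The 3855 genes called in siLAPTM4B cells ranged from 2720 to 4709 under the alternatives that kept all 6 arrays and from 2613 to 3293 with 1 array left out, lowest without the second 0% FBS array. The siControl count of 4866 ranged from 3497 to 4300 with 1 array left out. Of 163 called genes named here, 149 kept their call under each of the up to 16 alternatives tried for them. Genes whose feature the dim filter removed, such as *LIFR* and *TNFSF10*, were not tried under that filter. None changed sign while called, and 14 uncalled genes changed sign. With the replicate number as a block, 3836 siLAPTM4B genes were called, 3559 of them shared with the fit without it, and 5358 siControl genes; *SQSTM1* lost its call (adjusted p = 0.0753) and *MAP1LC3B* gained one (adjusted p = 0.0324). The interaction depended most on the processing: its 50 genes became 79 with the replicate block (48 shared), 17 with all features of the array tested, 105 without dim features, 154 with a robust prior variance that follows intensity, 640 at an unadjusted p under 0.01, and 19 to 49 with 1 array left out, lowest without the first siLAPTM4B array at 0% FBS. The count of 24 lower G2 and M genes became 28 with the block. The methods' t-test at an unadjusted p under 0.01, chosen after seeing the data, called 3046 genes, and 2720 after Benjamini-Hochberg adjustment at 0.05. Features below the lower quartile of an array may read background, which limits *HTN1*, *CD24*, *KITLG*, *LIFR*, *TNFSF10*, *KCTD4* and *ABCG2*. Each group held 3 arrays.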
